A study of Mus musculus with 4 samples.

Results

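Enteric glia were followed through 5 of their genes, Gfap, S100b, Sox10, Gfra3 and Ngfr, picked by symbol from the 22422 genes of the table. The tissue was distal colon of female mice, 6 weeks of age, after 5 days on 2% dextran sulfate sodium (DSS), a polysaccharide that injures the colonic lining, and its total RNA was sequenced. The mice were Elf4fl/fl-Villin-Cre or wild type, with 2 libraries of each genotype. In Elf4fl/fl-Villin-Cre mice, Cre recombinase under the villin promoter removes the floxed gene of the ETS-family transcription factor Elf4 from intestinal epithelium, so that glia are not the cells in which the deletion is driven. The strain label reads C57BL/8 for Elf4fl/fl-Villin-Cre and C57BL/6 for wild type, and the series design names C57BL/6 for both. Both groups had received DSS, and colon without DSS was not analysed here. The labels do not say whether the 2 libraries of a genotype came from separate animals, so p-values measure the spread between libraries, which may be technical.

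Enteric glia are cells of neural crest origin that surround the neurons of the gut's nerve plexuses and reach into the mucosa below the epithelium. Sox10 encodes the transcription factor that keeps neural crest derivatives in the glial lineage. Gfap encodes an intermediate filament protein that glia make in larger amounts when they become reactive, and S100b encodes a small calcium-binding protein that they also secrete. Ngfr encodes p75, a receptor for neurotrophins, and Gfra3 encodes the co-receptor through which artemin signals with the Ret kinase.

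For 3 of the 5 genes, the 250 bases before the regulatory start in RefSeq (GRCm38.p6) are shown. They are given because 1 of these genes rose in Elf4fl/fl-Villin-Cre colon and the others did not pass the test. The sequences of Sox10 and Gfra3 are not printed. These RefSeq starts differ from the gene limits given below, which are from GENCODE. The Gfap window lies inside the Gfap gene so annotated, and the Ngfr window overlaps the edge of the Ngfr gene. Capitals mark matches on either strand to an ETS motif, searched only as CCGGAA or AGGAAG, and all else is in lower case.
Gfap, chr11:102897201-102897450, minus strand: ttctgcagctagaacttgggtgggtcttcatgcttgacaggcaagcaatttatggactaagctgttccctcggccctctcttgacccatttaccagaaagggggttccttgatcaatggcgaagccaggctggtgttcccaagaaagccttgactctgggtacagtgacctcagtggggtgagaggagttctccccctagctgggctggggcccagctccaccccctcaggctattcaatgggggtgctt
S100b, chr10:76253586-76253835, plus strand: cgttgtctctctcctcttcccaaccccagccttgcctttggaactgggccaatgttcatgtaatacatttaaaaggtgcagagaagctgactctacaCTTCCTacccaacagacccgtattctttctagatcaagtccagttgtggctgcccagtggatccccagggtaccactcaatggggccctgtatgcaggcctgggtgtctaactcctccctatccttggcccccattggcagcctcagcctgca
Ngfr, chr11:95587699-95587948, minus strand: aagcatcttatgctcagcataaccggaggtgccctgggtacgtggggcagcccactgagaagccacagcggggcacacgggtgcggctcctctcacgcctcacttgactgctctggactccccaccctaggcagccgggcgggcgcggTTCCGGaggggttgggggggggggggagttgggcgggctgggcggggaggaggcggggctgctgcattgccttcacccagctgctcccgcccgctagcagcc

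The S100b match began 153 bases before the start and the Ngfr match 102 bases before it, and the Gfap window held neither ETS string. Of all 32851 mouse promoter windows of this length, 38.2% held either ETS string. The SOX strings (ACAAAG or ACAATG, 25.2% of all windows), the STAT string (TTCNNNGAA, 7.02%) and the AP-1 string (TGANTCA, 6.75%) were each in 0 of the 3 windows, searched on both strands. The Ngfr window had a GC content of 70.4% and 16 CpG dinucleotides. The Gfap and S100b windows had 55.6% and 53.6% GC and 2 CpG dinucleotides each, against medians of 52.4% and 6 over all windows. A match is a run of letters, not a bound site, and no match says only that these exact letters are not in these windows. Shorter or variant forms of the motifs were not searched, and such forms can be present, also in the Gfap window.

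The libraries held 16023926 and 16425954 reads in Elf4fl/fl-Villin-Cre colon and 16134509 and 15885028 reads in wild-type colon. Elf4 had 897 and 758 normalised reads in Elf4fl/fl-Villin-Cre colon, against 1588 and 1938 in wild-type colon (log2 fold change -1.09 ± 0.16 SE; limma adjusted p = 0.0139). Epithelial genes fell as well (median log2 fold change -1.31), and their part in the Elf4 value was not tested. Reads summed over the gene do not show whether the floxed exons were lost. Of 22050 genes tested, 1512 (6.86%) passed as higher and 1897 (8.6%) as lower in Elf4fl/fl-Villin-Cre colon at a limma adjusted p under 0.05, after Benjamini-Hochberg adjustment over all of them. The share of calls that were higher, 44.4%, was 77.5% with library totals, which shifted all log2 fold changes by 0.314 (median), and 28.7% with median scaling, which shifted them by -0.172. Quantile scaling moved each gene by its own amount (median -0.172) and gave 48.6% higher calls. A log2 fold change sets Elf4fl/fl-Villin-Cre against wild type after adding 1 to each value, so changes of genes with few reads come out too small; the median over all tested genes was 0.11. The epithelial gene Vil1 had 5612 and 5973 normalised reads in Elf4fl/fl-Villin-Cre colon, against 15717 and 19054 in wild-type colon, and smooth muscle genes were abundant as well.

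Of the 5 glia genes, Gfap rose about 2-fold in Elf4fl/fl-Villin-Cre colon, while S100b, Sox10, Gfra3 and Ngfr did not pass the test. All 5 passed the filter on low values, with 25 to 729 reads per library. The 1 gene that passed of 5 is set against 15.5% of all tested genes that passed in either direction (edgeR called the same 1 of 5, against 23.4% of the genes it tested). The median log2 fold change of the 5 was 0.32. In bulk tissue, changes in glial number, in RNA per glial cell and in the RNA share of other cells cannot be told apart. The epithelial genes fell in the same libraries (median log2 fold change -1.31), and their part in the glia gene values was not tested.

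Gfap, the filament gene (ENSMUSG00000020932.14, chr11:102887336-102900912 in mm10), had 594 and 524 normalised reads in Elf4fl/fl-Villin-Cre colon, against 278 and 239 in wild-type colon. Both Elf4fl/fl-Villin-Cre libraries lay above both wild-type libraries, and the replicates lay close together in each genotype. Gfap averaged 559 ± 49.1 in Elf4fl/fl-Villin-Cre colon and 258 ± 27.3 in wild-type colon (SD, n = 2 each), or 2.16 times as much. On the log2 scale Gfap rose by 1.11 ± 0.16 (SE; 95% interval 0.72 to 1.50; limma adjusted p = 0.0132, and edgeR adjusted p = 0.0094). The underlying reads numbered 729 and 627 in Elf4fl/fl-Villin-Cre libraries and 270 and 227 in wild-type libraries. With any 1 library left out, edgeR still called Gfap (adjusted p 0.00413 to 0.0481, log2 fold change 0.97 to 1.18), whereas limma called 0 genes of the whole table (3729 to 6189 at an unadjusted p under 0.05; Gfap 1.003 to 1.22, adjusted p 0.107 to 0.262). An antisense gene, Gm26668, lies across the Gfap locus but shares 0 exonic bases with it and had 3.16 to 14.2 normalised reads per library.

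**Figure D1:**
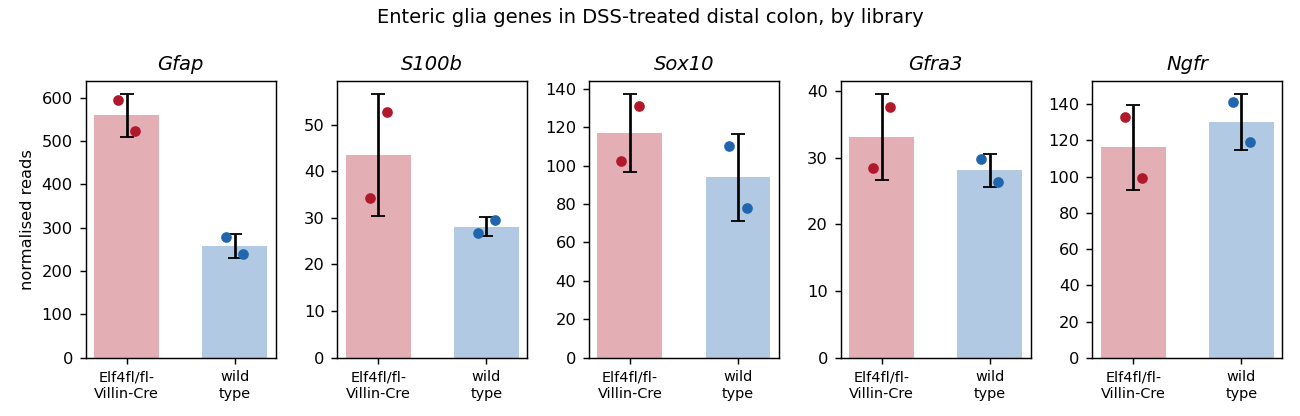
Normalised reads (vertical axis, each from 0) of the 5 enteric glia genes in Elf4fl/fl-Villin-Cre and wild-type colon after DSS; points are libraries, bars are means and whiskers are SD (n = 2 each). The Gfap points of Elf4fl/fl-Villin-Cre colon (594 and 524) stand well above those of wild type (278 and 239), while the Sox10, Gfra3 and Ngfr points of the genotypes overlap.

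S100b, the calcium-binding protein gene (ENSMUSG00000033208.7, chr10:76253853-76261159), had 34.2 and 52.7 normalised reads in Elf4fl/fl-Villin-Cre colon, against 26.8 and 29.5 in wild-type colon. The genotypes did not overlap, as was so for 62.2% of all tested genes (35% with Elf4fl/fl-Villin-Cre higher, which holds for 2 of the 5 glia genes, Gfap and S100b), but the 2 Elf4fl/fl-Villin-Cre libraries differed from each other by more than the lower of them differed from wild type. The log2 fold change was 0.58 ± 0.35 (SE; 95% interval -0.27 to 1.43; limma adjusted p = 0.308). It rested on 42 and 63 reads in Elf4fl/fl-Villin-Cre libraries and 26 and 28 in wild-type libraries, and the interval holds both 0 and the value of Gfap. Adipocytes also make S100b, and of 6 adipocyte genes 1 rose, Fabp4, which macrophages and endothelium make as well (1538 and 1055 normalised reads in Elf4fl/fl-Villin-Cre colon, 618 and 477 in wild-type colon). The summed level of the 6 was 2405 and 1650 in Elf4fl/fl-Villin-Cre colon and 1169 and 948 in wild-type colon, 0 of them were at 0 reads, and their part in the S100b values was not tested. Leaving out wild type replicate 2 cost Fabp4 its call (edgeR adjusted p = 0.082), and without Elf4fl/fl-Villin-Cre replicate 2 edgeR called 3 adipocyte genes.

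Sox10, the lineage transcription factor gene (ENSMUSG00000033006.9, chr15:79154908-79165240), had 103 and 131 normalised reads in Elf4fl/fl-Villin-Cre colon, against 110 and 78.0 in wild-type colon. Wild type replicate 1 lay between the 2 Elf4fl/fl-Villin-Cre libraries, so the genotypes overlapped. The log2 fold change was 0.32 ± 0.27 (SE; 95% interval -0.33 to 0.97; limma adjusted p = 0.449). Melanocytes also use Sox10. Of 5 melanocyte genes, Mlana, Tyr and Tyrp1 had no row, Dct was at 0 and 0 reads in Elf4fl/fl-Villin-Cre colon with 3.09 and 1.05 normalised reads in wild-type colon, and Pmel had 21.99 and 34.3 in Elf4fl/fl-Villin-Cre colon against 42.2 and 51.6 in wild-type colon. Their part in the Sox10 values was not tested.

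The receptor genes showed no difference larger than their spread. Ngfr (ENSMUSG00000000120.6, chr11:95568818-95587735) had 133 and 99.5 normalised reads in Elf4fl/fl-Villin-Cre colon, against 141 and 119 in wild-type colon. Its log2 fold change was -0.17 ± 0.23 (SE; 95% interval -0.74 to 0.40; limma adjusted p = 0.658), and it turned to 0.14 with library totals and to 0.03 without Elf4fl/fl-Villin-Cre replicate 2. The interval for Ngfr did not reach the log2 rise of 1.11 seen for Gfap, nor did those for Sox10 and Gfra3 (upper limits 0.97 and 1.04). The interval for Gfap itself (0.72 to 1.50) overlapped those for Sox10 and Gfra3 but not that for Ngfr. Gfra3 (ENSMUSG00000024366.7, chr18:34689898-34720387) had 28.5 and 37.6 normalised reads in Elf4fl/fl-Villin-Cre colon, against 29.8 and 26.3 in wild-type colon. Its log2 fold change was 0.22 ± 0.34 (SE; 95% interval -0.61 to 1.04; limma adjusted p = 0.701), and it turned to -0.06 with quantile scaling and to -0.02 when edgeR left out Elf4fl/fl-Villin-Cre replicate 2. Gfra3 had 25 to 45 reads per library, the fewest of the 5 in each library but wild type replicate 1, where S100b had 26 against its 29.

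Per kilobase of annotated exon, Gfap stood highest in both genotypes, at 133 ± 11.6 normalised reads per kilobase in Elf4fl/fl-Villin-Cre colon and 61.3 ± 6.47 in wild-type colon (SD, n = 2 each). In Elf4fl/fl-Villin-Cre colon the order of levels below Gfap was Sox10 (38.3 ± 6.64), Ngfr (33.7 ± 6.82), S100b (29.3 ± 8.80) and Gfra3 (16.6 ± 3.23). In wild-type colon it was Ngfr (37.7 ± 4.49), Sox10 (30.8 ± 7.44), S100b (19.0 ± 1.31) and Gfra3 (14.1 ± 1.24). Sox10 and Ngfr overlapped between libraries in both genotypes, and S100b overlapped with both of them in Elf4fl/fl-Villin-Cre colon, so these neighbours did not differ beyond their spread. Gfra3 lay below the other 4 genes in every library.

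Dividing 1 gene by another within a library removes the scaling of that library. The ratio of Gfap to Sox10 was 5.79 and 3.99 in Elf4fl/fl-Villin-Cre colon, against 2.52 and 3.07 in wild-type colon. The ratio of Gfap to Ngfr was 4.47 and 5.27 in Elf4fl/fl-Villin-Cre colon, against 1.97 and 2.01 in wild-type colon, a log2 difference of 1.29. The genotypes did not overlap for either ratio, nor for Gfap over Gfra3 (20.8 and 13.9 in Elf4fl/fl-Villin-Cre colon, 9.31 and 9.08 in wild-type colon). They did overlap for Gfap over S100b (17.4 and 9.95 in Elf4fl/fl-Villin-Cre colon, 10.4 and 8.11 in wild-type colon). With 2 libraries against 2, an exact two-sided permutation test cannot give less than p = 0.333, which is what the 3 ratios that did not overlap reached (p = 0.667 for Gfap over S100b), so the ratios are given as measurements.

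**Figure D2:**
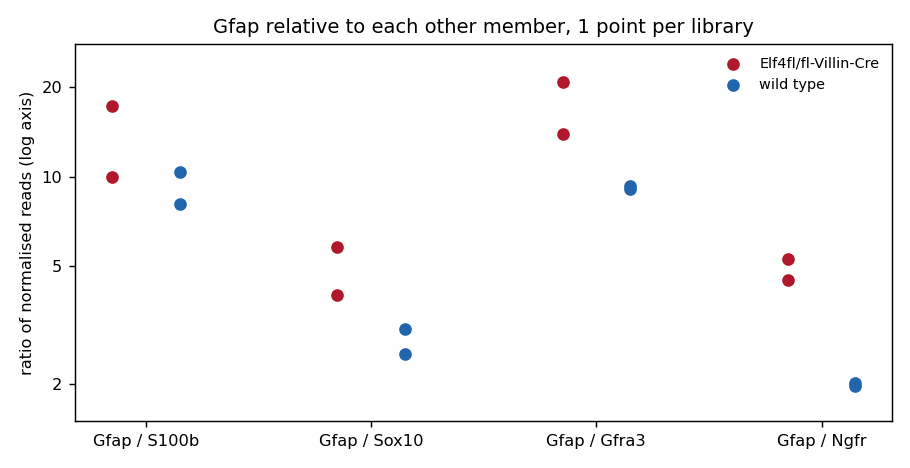
Ratio of Gfap to each other member in the same library (vertical log axis, ratio of normalised reads), 1 point per library. Over Ngfr the Elf4fl/fl-Villin-Cre points (4.47 and 5.27) lie above the wild-type points (1.97 and 2.01), and over S100b the genotypes overlap.

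Other genes of enteric glia went both ways. Of 13 further glia genes, all tested, 1 passed as higher and 2 as lower, around a median of 0.37 in log2 fold change. Among all tested genes, 6.86% passed as higher and 8.6% as lower. Each list count, above and below, is to be read beside these shares. Scaling by library totals gave 5 calls in place of 3. Scn7a, a sodium channel gene of glia and Schwann cells, had 594 and 561 normalised reads in Elf4fl/fl-Villin-Cre colon, against 271 and 225 in wild-type colon (log2 fold change 1.22 ± 0.16 SE; limma adjusted p = 0.0111). Both Elf4fl/fl-Villin-Cre libraries lay above both wild-type libraries, with a rise near that of Gfap, and edgeR called Scn7a without each of the 4 libraries in turn.

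The ratio of Scn7a to Sox10 was 5.79 and 4.27 in Elf4fl/fl-Villin-Cre colon, against 2.46 and 2.89 in wild-type colon, without overlap. The ratio of Scn7a to Ngfr was 4.47 and 5.64 in Elf4fl/fl-Villin-Cre colon, against 1.92 and 1.89 in wild-type colon, also without overlap (exact two-sided permutation p = 0.333 for each, the smallest that 2 against 2 libraries can give). Scn7a over Gfap did not overlap either, at 1 and 1.07 against 0.974 and 0.943, a log2 difference of only 0.11. Absence of overlap thus does not mark a large difference. Scn7a was named because it passed as higher, so its ratios partly restate that call. The other 10 glia genes ranged from -0.51 to 1.05 in log2 fold change, and 8 of them were positive. The lowest of the 10 was Entpd2. It had 195 and 211 normalised reads in Elf4fl/fl-Villin-Cre colon, against 284 and 293 in wild-type colon, and did not pass (limma adjusted p = 0.0818).

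The 2 that passed as lower were Erbb3 and Cnp, both of which are also made outside glia. Erbb3, the neuregulin receptor that glia and epithelium share, had 1231 and 1849 normalised reads in Elf4fl/fl-Villin-Cre colon, against 4027 and 5396 in wild-type colon (log2 fold change -1.63 ± 0.24 SE; limma adjusted p = 0.0138). Cnp, a phosphodiesterase of myelinating cells, had 683 and 690 normalised reads in Elf4fl/fl-Villin-Cre colon, against 1670 and 1272 in wild-type colon (log2 fold change -1.08 ± 0.17 SE; limma adjusted p = 0.0144). The epithelial genes fell in the same libraries, 7 of 7 with a median log2 fold change of -1.31 and a summed level of 67738 and 77107 in Elf4fl/fl-Villin-Cre colon against 192408 and 239201 in wild-type colon. Their part in the Erbb3 and Cnp values was not tested.

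**Figure D3:**
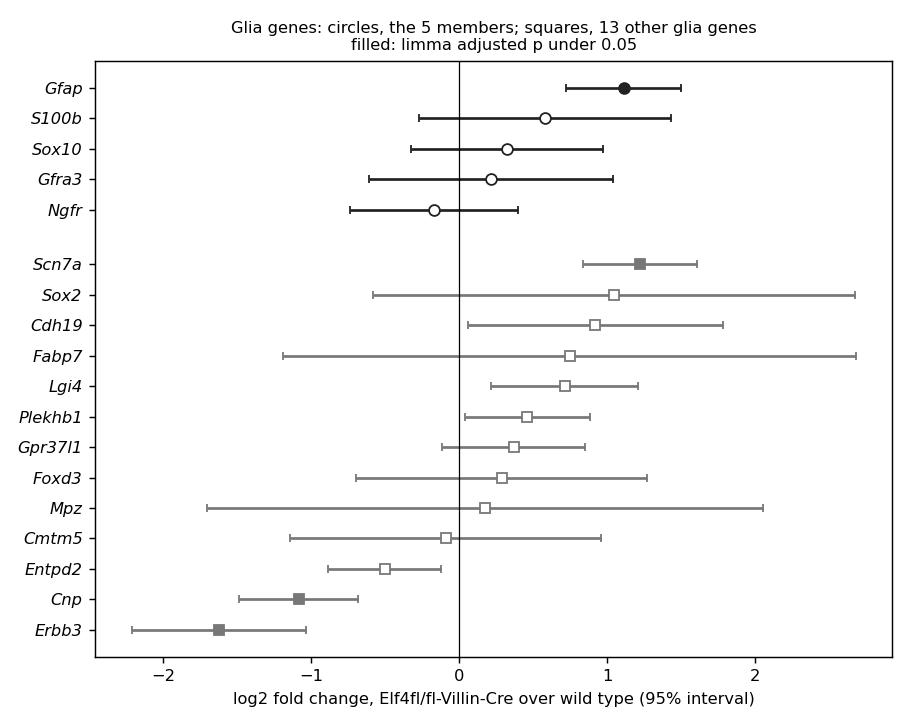
Log2 fold change, Elf4fl/fl-Villin-Cre over wild type (horizontal axis), with 95% intervals from limma, for the 5 members (circles) and 13 other glia genes (squares); filled symbols passed at an adjusted p under 0.05. Gfap and Scn7a lie at 1.11 and 1.22, Cnp and Erbb3 at -1.08 and -1.63, and the intervals of S100b, Sox10, Gfra3 and Ngfr include 0.

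Ligands and co-receptors of the GDNF family, to which Gfra3 belongs, were higher in part. Of 8 such genes 3 passed as higher and 0 as lower, with a median log2 fold change of 0.35. Artn, which encodes the ligand artemin of Gfra3, had 212 and 165 normalised reads in Elf4fl/fl-Villin-Cre colon, against 87.5 and 69.5 in wild-type colon (log2 fold change 1.25 ± 0.24 SE; limma adjusted p = 0.0226). Gfra2, the neurturin co-receptor gene, had 178 and 176 normalised reads in Elf4fl/fl-Villin-Cre colon, against 82.3 and 66.4 in wild-type colon (log2 fold change 1.25 ± 0.21 SE; limma adjusted p = 0.018). Gdnf, the factor that guides neural crest cells into the gut, had 112 and 113 normalised reads in Elf4fl/fl-Villin-Cre colon, against 60.7 and 58.0 in wild-type colon (log2 fold change 0.91 ± 0.22 SE; limma adjusted p = 0.0421). In each of these the genotypes lay apart, as in 5 of the 8 genes and in 62.2% of all tested genes. The Gfra3 values overlapped.

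These calls rested on all 4 libraries: edgeR called 1 of the 8 genes when Elf4fl/fl-Villin-Cre replicate 1 was left out and 0 when wild type replicate 2 was. Gdnf lost its edgeR call in each of the 4 fits without 1 library (adjusted p 0.0975 to 0.14), and it did not pass with quantile scaling, median scaling or DESeq2 (adjusted p = 0.0831, 0.0691 and 0.0656). Artn lost it without Elf4fl/fl-Villin-Cre replicate 1 or wild type replicate 2 (highest adjusted p = 0.0913), and Gfra2 without wild type replicate 2 (adjusted p = 0.0705). Ret, the kinase that all these co-receptors share, stood at 0.39 ± 0.18 and Gfra1, the GDNF co-receptor gene, at 0.30 ± 0.22 in log2 fold change (SE; limma adjusted p = 0.2 and 0.401), and Ret passed as higher with library totals (adjusted p = 0.034).

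Among neurotrophins and their receptors, the partners of Ngfr, 2 of 8 passed as higher and 1 as lower, with a median log2 fold change of 0.38. Bdnf, which encodes brain-derived neurotrophic factor, had 45.6 and 46.0 normalised reads in Elf4fl/fl-Villin-Cre colon, against 7.20 and 9.48 in wild-type colon (log2 fold change 2.34 ± 0.38 SE; limma adjusted p = 0.0164). Sort1, which encodes sortilin, the co-receptor of p75 for pro-neurotrophins and a sorting receptor of many cells, had 1013 and 1513 normalised reads in Elf4fl/fl-Villin-Cre colon, against 3772 and 5429 in wild-type colon (log2 fold change -1.87 ± 0.26 SE; limma adjusted p = 0.0119). Ntrk3, the neurotrophin 3 receptor gene, had 140 and 115 normalised reads in Elf4fl/fl-Villin-Cre colon, against 66.9 and 59.0 in wild-type colon (ratio of means 2.02; limma adjusted p = 0.0385), a call that edgeR kept in 1 of the 4 leave-one-out fits (highest adjusted p = 0.161) and that quantile and median scaling lost (adjusted p = 0.0792 and 0.0557).

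Of 10 neural crest genes beside Sox10, 3 passed as higher and 1 as lower, with a median log2 fold change of 0.67 (Pax3 and Tfap2b had no row). Against these 4 calls, edgeR made 2 when either Elf4fl/fl-Villin-Cre replicate 1 or wild type replicate 1 was left out and 1 when wild type replicate 2 was. Ednrb, the endothelin receptor gene needed for colonisation of the gut by neural crest, had 1858 and 1538 normalised reads in Elf4fl/fl-Villin-Cre colon, against 584 and 652 in wild-type colon (log2 fold change 1.45 ± 0.15 SE; limma adjusted p = 0.00942). Which cells of the colon made the RNA of Ednrb, and of the other neural crest genes that passed as higher, was not tested. Sox8 and Sox9 encode the closest relatives of Sox10. Sox8 had 33.4 and 20.1 normalised reads in Elf4fl/fl-Villin-Cre colon, against 15.4 and 10.5 in wild-type colon (log2 fold change 0.97 ± 0.45 SE; limma adjusted p = 0.201). Sox9, which colonic epithelial progenitors also make, had 88.0 and 207 normalised reads in Elf4fl/fl-Villin-Cre colon, against 462 and 356 in wild-type colon (log2 fold change -1.58 ± 0.40 SE; limma adjusted p = 0.048). The Sox9 value was -0.97 in limma without Elf4fl/fl-Villin-Cre replicate 1, and its edgeR call was lost without wild type replicate 1 or 2 (highest adjusted p = 0.122). It did not pass limma with a pseudocount of 0.5, no filter, library totals or quantile scaling (adjusted p 0.0518 to 0.063).

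Nrg1, which encodes neuregulin 1, the ligand that glial Erbb3 reads, had 4776 and 3179 normalised reads in Elf4fl/fl-Villin-Cre colon, against 539 and 668 in wild-type colon (log2 fold change 2.70 ± 0.22 SE; limma adjusted p = 0.00737). Erbb2, the partner of Erbb3, fell by 1.41 ± 0.18 on the log2 scale (SE; limma adjusted p = 0.0104). Of the 6 measured neuregulin and receptor genes 1 thus passed as higher and 2, Erbb2 and Erbb3, as lower. Which cells made the Nrg1, Erbb2 and Erbb3 RNA was not tested.

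Intermediate filament genes beside Gfap, and genes that reactive glia share with other cells, differed in their own ways. Nes, the nestin gene of neural progenitors and of endothelium, had 430 and 616 normalised reads in Elf4fl/fl-Villin-Cre colon, against 182 and 152 in wild-type colon (log2 fold change 1.62 ± 0.22 SE; limma adjusted p = 0.0119). Vim, the vimentin gene of mesenchyme, leukocytes and glia, rose by 0.92 ± 0.16 (SE; limma adjusted p = 0.0186), without its edgeR call when wild type replicate 2 was left out (adjusted p = 0.0797). Des, the desmin gene of muscle, fell by 0.93 ± 0.22 (SE; limma adjusted p = 0.0382), lost its edgeR call in 3 of the 4 leave-one-out fits (highest adjusted p = 0.124), and with library totals and quantile scaling stood at -0.62 and -0.49 (adjusted p = 0.0669 and 0.188). Prph, the peripherin gene of enteric neurons, stood at 0.50 ± 0.20 (SE; limma adjusted p = 0.148) and passed as higher with library totals (adjusted p = 0.0341). Of the 9 filament genes 2 passed as higher and 1 as lower, and edgeR called 1 without wild type replicate 2.

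Of 12 genes used as marks of reactive glia in the central nervous system, 9 passed as higher and 0 as lower (median log2 fold change 1.58). The 3 that did not pass, Gap43, Cryab and Cxcl10, stood at 0.07, -0.08 and -0.43 (limma adjusted p = 0.823, 0.721 and 0.491). The share that passed as higher was 6.86% among all tested genes. Gja1, the connexin 43 gene of enteric glia and of smooth muscle and stroma, had 4684 and 3990 normalised reads in Elf4fl/fl-Villin-Cre colon, against 1164 and 1150 in wild-type colon (log2 fold change 1.90 ± 0.14 SE; limma adjusted p = 0.00636). The chemokine gene Ccl2, the lipocalin gene Lcn2 and the metalloreductase gene Steap4 rose by 3.28, 4.28 and 1.06 (limma adjusted p = 0.00742, 0.00973 and 0.01). Leukocytes, epithelium and stroma also make these, and 5 of 7 leukocyte genes rose in the same libraries, with a summed level of 6158 and 4279 in Elf4fl/fl-Villin-Cre colon against 2373 and 1889 in wild-type colon. The leukocyte calls numbered 3 with quantile or median scaling, and edgeR made 2 when either Elf4fl/fl-Villin-Cre replicate 1 or wild type replicate 2 was left out and 3 when wild type replicate 1 was. The part of leukocytes was not tested.

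The S100 genes beside S100b had a median log2 fold change of -0.47, with 2 of 11 passed as higher and 3 as lower. The 5 calls became 3 with library totals or quantile scaling and 8 with median scaling or DESeq2, and edgeR made 3 when either Elf4fl/fl-Villin-Cre replicate 1 or wild type replicate 1 was left out and 2 when wild type replicate 2 was. The 2 that rose were S100a8 and S100a9, the neutrophil calprotectin genes. S100a8 had 1579 and 1362 normalised reads in Elf4fl/fl-Villin-Cre colon, against 249 and 90.6 in wild-type colon (log2 fold change 3.28 ± 0.44 SE; limma adjusted p = 0.0117). The neutrophil receptor gene Csf3r rose by 2.15 in the same libraries (limma adjusted p = 0.00737).

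Genes of the cells around the glia were set beside these values. Of 18 enteric neuron genes 2 passed as higher, 1 as lower and 15 did not pass, and 16 had a positive log2 fold change, with a median of 0.42 against 0.11 over all tested genes. With library totals 10 of the 18 were called, against 3. Both that rose, Vip and Gal, encode neuropeptides. Vip had 3214 and 3662 normalised reads in Elf4fl/fl-Villin-Cre colon, against 1257 and 1042 in wild-type colon (log2 fold change 1.58 ± 0.15 SE; limma adjusted p = 0.00825). Gal had 173 and 216 normalised reads in Elf4fl/fl-Villin-Cre colon, against 55.6 and 42.1 in wild-type colon (log2 fold change 1.98 ± 0.25 SE; limma adjusted p = 0.0107). Tac1, the substance P gene, fell by 0.86 ± 0.17 (SE; limma adjusted p = 0.0237), stood at -0.54 with library totals, and lost its call with quantile scaling (adjusted p = 0.0703) and in edgeR fits that left out Elf4fl/fl-Villin-Cre replicate 1 or wild type replicate 2 (highest adjusted p = 0.0566).

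The myenteric plexus lies within the muscle. Of 10 smooth muscle genes 0 passed as higher and 1, Des, as lower, with a median log2 fold change of -0.37 and a summed level of 68698 and 100559 in Elf4fl/fl-Villin-Cre colon against 142452 and 110873 in wild-type colon. That count of 1 ranged from 0 to 3 over the alternatives, with 3 in the edgeR fit that left out Elf4fl/fl-Villin-Cre replicate 2 and 0 in those that left out any other library. Of 5 genes of interstitial cells of Cajal 1 passed as higher (Etv1) and 2 as lower (Ano1 and Thbs4). Fibroblast and pericyte genes were higher in the same libraries, 3 of 8 and 4 of 6 passed as higher, with medians of 0.60 and 1.04. The fibroblast calls numbered 6 with library totals and 1 in edgeR without wild type replicate 2. The fibroblast proteoglycan gene Dcn rose by 1.84 and the pericyte genes Kcnj8 and Pdgfrb by 2.04 and 1.54 (limma adjusted p = 0.00742, 0.00942 and 0.0105). Of 7 genes of lymphoid follicle stroma, cells that also carry p75, 2 passed as higher (median 1.03), among them Tnfsf11 with 164 and 237 normalised reads in Elf4fl/fl-Villin-Cre colon against 22.6 and 24.2 in wild-type colon (limma adjusted p = 0.00792), while the Ngfr values of the genotypes overlapped. edgeR called 4 of these stroma genes with Elf4fl/fl-Villin-Cre replicate 2 left out and 1 with wild type replicate 2 left out. What part these cells had in the glia gene values was not tested.

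Of 9 measured genes of myelin and Schwann cells 1 passed as higher and 2 as lower (1 call in all with quantile scaling). The 2 that fell, Pmp22 and Gjb1, are also made by epithelium or fibroblasts. The 1 that rose, Egr2, which leukocytes also use, stood at 2.61 and at 1.72 without wild type replicate 2 (limma). Leaving out wild type replicate 2 cost all 3 their edgeR call, and Gjb1 lost it without wild type replicate 1 as well (highest adjusted p = 0.0724, 0.0813 and 0.0744 for Pmp22, Gjb1 and Egr2).

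**Figure D4:**
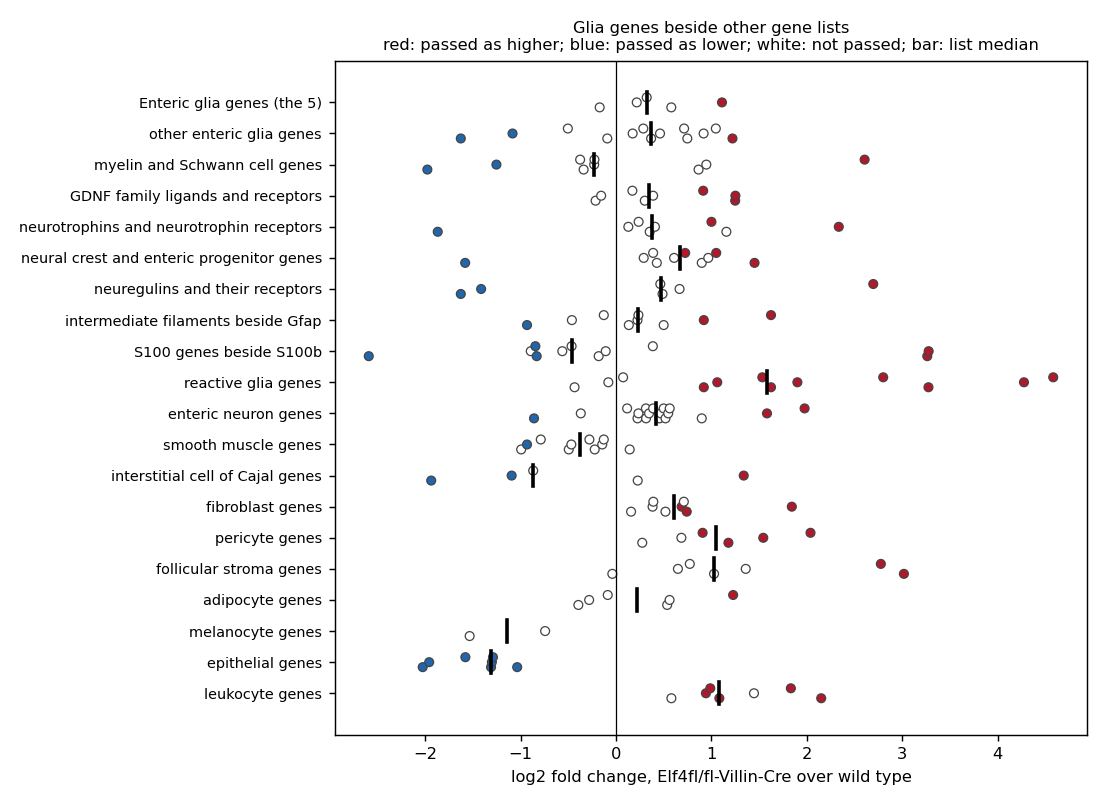
Log2 fold change, Elf4fl/fl-Villin-Cre over wild type (horizontal axis), of each tested gene (1 point) in the 5 enteric glia genes and 19 other lists; red points passed as higher, blue as lower, white did not pass, and bars are list medians. The glia genes centre at 0.32, close to the enteric neuron median of 0.42, between the epithelial median of -1.31 and the reactive glia median of 1.58.

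The genes whose pattern over the 4 libraries lay nearest to each member were sought among 10629 well-expressed named genes, by the Euclidean distance of centred log2 values. The 3 nearest to Gfap were Scube1, Dsel and Kirrel (distances 0.0379, 0.0459 and 0.0497). For Sox10 they were Mcam, Ddah2 and Haus7 (0.0205, 0.0358 and 0.0662), and for S100b Igfbp6, Eva1a and Spock2 (0.138, 0.147 and 0.149). For Gfra3 they were Mllt11, Qsox2 and Tnfrsf10b (0.0248, 0.0324 and 0.043), and for Ngfr Idnk, Tmem140 and Gtf3a (0.0392, 0.0652 and 0.067). No gene was nearest to more than 1 member.

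**Figure D5:**
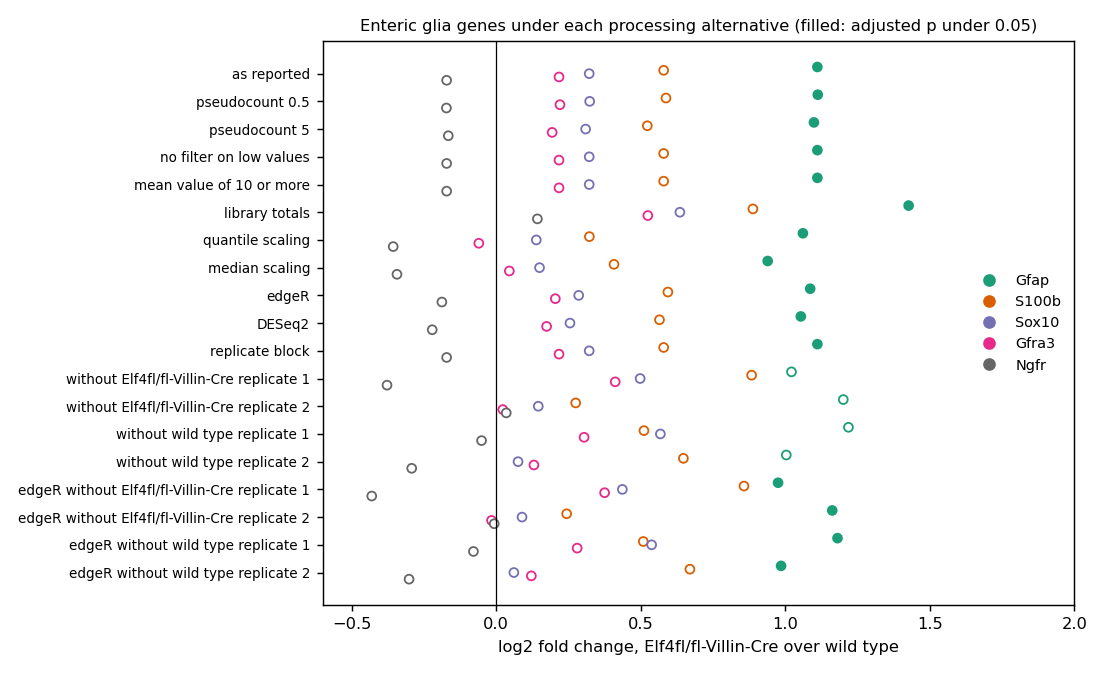
Log2 fold change, Elf4fl/fl-Villin-Cre over wild type (horizontal axis), of the 5 enteric glia genes under each processing alternative (rows); filled points had an adjusted p under 0.05. Gfap lies between 0.94 and 1.43 in all rows and is unfilled only in the 4 limma fits without 1 library, while the other 4 genes are unfilled throughout.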

How the data were processed

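The deposited table holds 1 normalised signal per gene and library, made by the authors. Every value (100%, tolerance 0.01) was a multiple of what 1 read is worth in its library (0.814 to 1.05), so the signal is a read count divided by 1 factor per library, without gene length. Per the submitters' processing notes the build was mm10. Not given in the sources used here: the aligner, the counter, the strand setting and the scaling tool. Per the labels, Trizol was used for the RNA and Illumina's standard protocols for the libraries. Symbols, positions and exon lengths came from GENCODE mouse release 21 (22376 of 22422 identifiers matched).

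Genotype was the only term of the limma fit (3.58.1, R 4.3.3), which used log2(value + 1) and a trended variance. Genes with a mean value of at least 1 were tested, which kept 22050, with 2 residual and 4.06 prior degrees of freedom. edgeR 4.0.16 (TMM) and DESeq2 1.42.0 were run on the recovered counts. The limma, edgeR and DESeq2 tests were tried first on simulated reads of 4 libraries. Quantile and median scaling, the replicate block, the fits without 1 library and the permutation test were not. Intervals cover spread between libraries, and read numbers carry counting error besides.

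The glia genes, the 19 other lists and the tests were chosen with earlier results of these data known. Genes were named as members, as relatives or partners of members, and, from each list, as up to 4 passed genes of smallest p. Not every gene so taken is described, and a few genes that did not pass are named besides. Some genes of the lists are not reported here and enter no list count.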

Additional observations from a re-analysis of the deposited data

How the results depend on the processing

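Gfap was called in all 10 alternatives that used every library (log2 fold change 0.94 with median scaling to 1.43 with library totals). With the replicate block it stood at 1.11 (adjusted p = 0.00396); the same-numbered libraries' deviations correlated at 0.104 over genes, and with 2 pairs the numbers are not taken as pairing animals. Under the block 4511 genes were called against 3409, and the list genes called numbered 70 against 61; no member changed its call. Without 1 library, limma called 0 genes, 0 of the list genes and 0 of the members, and Gfap ranged from 1.003 to 1.22; 1 residual degree of freedom remained, and the lone library is assumed to vary like the other group. edgeR without 1 library, chosen after seeing the data, called 1285 to 3754 genes (2142 without Elf4fl/fl-Villin-Cre replicate 1), 34 to 68 list genes, and 1 member each time.

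Library totals called 5236 genes. S100b and Sox10 kept their direction and missed the threshold in all alternatives. Gfra3 turned to -0.0601 with quantile scaling and ranged from 0.02 to 0.41 without 1 library in limma and from -0.0161 to 0.38 in edgeR. Ngfr turned to 0.14 with library totals, and ranged from -0.377 to 0.0349 without 1 library in limma and from -0.43 to -0.00687 in edgeR. Of 41 named genes called, 29 kept their edgeR call without each library in turn. Depth limits Gfra3 and S100b most, with 25 to 63 reads per library.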
